A study of Homo sapiens with 4 samples.

Results

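The 10 genes described here encode beta-catenin, proteins that degrade it and proteins through which it acts on transcription. They were chosen by name: APC, GSK3B and CSNK1A1 of the destruction complex, CTNNB1 (beta-catenin), the factors TCF7, TCF7L1, TCF7L2 and LEF1, and the adaptors BCL9 and BCL9L. All 10 were found among the 19729 genes listed. Their RNA was measured in HT-29, a human colorectal cancer cell line that the labels describe as microsatellite stable (MSS), BRAF-V600E and APC-mutant. The APC of these cells is truncated, so silencing was directed at a shortened APC and not at the full-length protein. The cells had been stably transduced with a lentiviral vector for a doxycycline (DOX)-inducible shRNA. The shRNA was directed against APC in 1 group (APC shRNA) and non-silencing in the other (NonS). Both groups received 500 ng/ml DOX for 72 h and were 3 to 5 passages past transduction. Each group has 2 biological replicates, I and II, giving 4 libraries, and the comparison asks how the RNA of these genes differed after APC silencing.

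In the absence of a Wnt signal, APC and the axins hold beta-catenin near the kinases CK1 alpha (CSNK1A1) and GSK3, which phosphorylate it and so mark it for ubiquitination and breakdown by the proteasome. When breakdown fails, beta-catenin enters the nucleus and binds TCF/LEF factors at Wnt target genes, where BCL9 and BCL9L link it to Pygopus. Truncated APC is the most frequent early lesion of colorectal cancer. Because beta-catenin is controlled mainly as a protein, the RNA levels given here do not measure its amount or its activity.

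The TCF/LEF factors are close relatives, and the reads were 50 bases long. How far 1 read can tell them apart is shown by a stretch of that length from the part of each gene that encodes the DNA-binding HMG box. Each stretch is printed 5′ to 3′ on the strand of the gene, with positions on GRCh38 and exons from GENCODE v29, and each lies within 1 coding exon. Capitals in the lower 3 sequences mark bases identical to TCF7.
TCF7 (chr5:134142834-134142883, + strand): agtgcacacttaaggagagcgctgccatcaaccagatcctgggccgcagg
TCF7L2 (chr10:113151835-113151884, + strand): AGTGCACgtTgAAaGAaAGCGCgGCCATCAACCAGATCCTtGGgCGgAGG
TCF7L1 (chr2:85306316-85306365, + strand): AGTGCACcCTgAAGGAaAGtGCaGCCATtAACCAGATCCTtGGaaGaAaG
LEF1 (chr4:108078220-108078269, − strand): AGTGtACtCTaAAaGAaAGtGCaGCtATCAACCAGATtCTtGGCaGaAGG
Even in this conserved stretch TCF7L2 differed from TCF7 at 9 of 50 bases, TCF7L1 at 11 and LEF1 at 12. The longest run of bases that TCF7 shares exactly with any of them is 17 bases, with TCF7L2. The longest run between any 2 of the factors is 29 bases, between TCF7L1 and LEF1, and BCL9 and BCL9L share at most 16 bases in a row. No stretch of 50 bases from the transcripts of CTNNB1, TCF7, TCF7L2, LEF1, BCL9 or BCL9L recurs on the same strand in the transcripts of another gene. CSNK1A1 stands apart in this respect, since 2859 of its 7830 such stretches (36.5%) do.

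The deposited values are whole numbers of unstated scale. They behave as values scaled to gene length and library, because the sum of value times length of the longest transcript in kb lay between 980841 and 984873 in the 4 libraries, and replicates of low genes were closer together than read counts could be (a variance of 0.484 times that of Poisson counts in NonS and of 0.364 times in APC shRNA). Read depth is therefore unknown, and levels of different genes are compared below on this scale, which is read as per length. Plain totals lay between 398338 and 413595, and 12051 to 12320 genes were above 0. Colon epithelial markers were present: 8 of 8 were above 0 in at least 1 library, and their summed value was 3703 to 4645 in NonS and 4500 to 4715 in APC shRNA. The intestinal transcription factors of this list were low and went opposite ways: CDX2 was at 0 in NonS replicates I and II and at 2 and 4 after silencing, and CDX1 was at 2 in each NonS library and at 0 in each APC shRNA library. Fibroblast markers (7 of 7) were at 0 throughout, and 5 of 7 T cell markers were at 0, with sums of 0 to 1.

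The core genes ranged from abundant to undetected. CTNNB1 was the most abundant in every library, ahead of CSNK1A1. BCL9L, TCF7, GSK3B and TCF7L2 lay between 10 and 24, BCL9 lay between 7 and 10, APC was at or near 0, and TCF7L1 and LEF1 were listed at 0 in all 4 libraries. By their NonS mean, CTNNB1 stood at the 89.1 percentile of the genes above 0 in NonS, CSNK1A1 at 78.4, BCL9L at 67.7, TCF7 at 62.8, GSK3B at 60.4, TCF7L2 at 56.2 and BCL9 at 46.3. In NonS cells the neighbours TCF7 (12 and 13) and GSK3B (12 and 11) overlapped, as did no other neighbouring pair in this order. After silencing TCF7 and BCL9L overlapped, and so did GSK3B, TCF7L2 and BCL9.

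**Figure D1:**
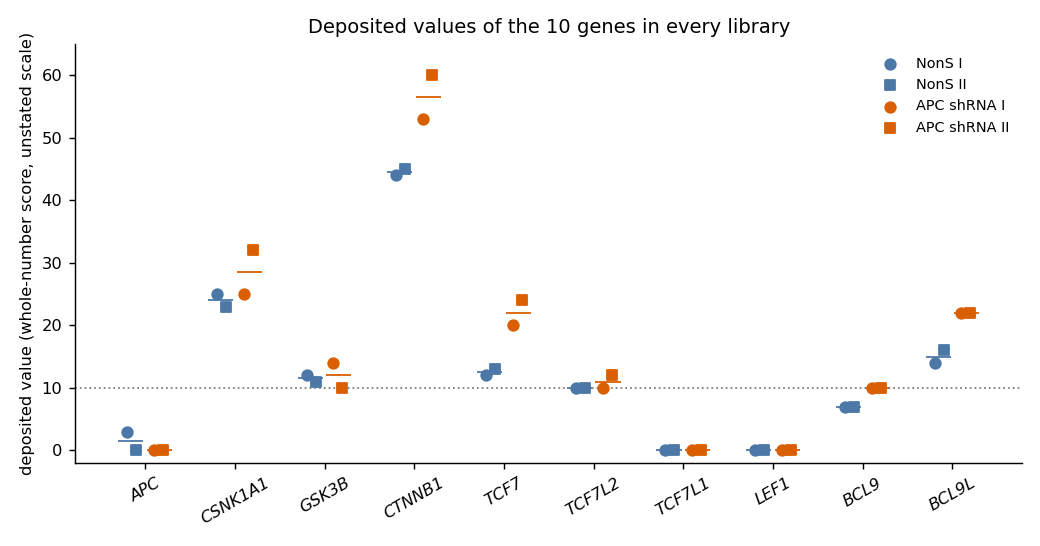
Deposited values (whole-number scores, vertical axis) of the 10 genes in each of the 4 libraries, with NonS in blue, APC shRNA in orange, circles for replicate I, squares for replicate II and short lines for group means. The dotted line marks a value of 10, the mean needed for testing, and the APC shRNA points of CTNNB1, TCF7, BCL9 and BCL9L sit above both of their NonS points.

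A gene was tested where its mean over the 4 libraries was at least 10, on log2(value + 1) with limma and Benjamini-Hochberg adjustment over 5376 genes, and called at an adjusted p under 0.05. The smallest adjusted p of all genes in this test was 0.0423, so that of every called gene lies between 0.0423 and 0.05 and hardly tells called genes apart. A difference on this scale understates the change of a low gene. Of the 10 core genes 6 passed that filter and 0 of 6 were called, against 8.04% of all genes tested (4.33% higher and 3.70% lower after silencing). TCF7, BCL9L and CTNNB1 had an unadjusted p under 0.05 in limma, as had 1912 of all 5376 genes. The 6 tested genes all had a higher mean after silencing, with a median log2 difference of 0.28, against 0.03 over all genes tested. Both APC shRNA values lay above both NonS values in 3 of the 6, which 33.0% of all genes tested also showed. A single gene with 2 values against 2 cannot reach an exact permutation p under 0.333.

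APC, the scaffold of the destruction complex and the target of the shRNA, was listed at 3 in NonS replicate I, at 0 in NonS replicate II and at 0 in replicates I and II of APC shRNA. The groups therefore overlap, and the only value above 0 came from 1 library. The gene (chr5:112707498-112846239, + strand) was too low to be tested, no fold is given against a group listed at 0, and the deposited values do not show by themselves that APC RNA was lowered. In bulk RNA, fewer cells with a transcript and less of it per cell cannot be told apart. Its paralogue APC2 was listed at 0 in all 4 libraries.

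CSNK1A1 (chr5:149492197-149551552, − strand) encodes CK1 alpha, which places the priming phosphate on beta-catenin. It was listed at 25 and 23 in the NonS libraries and at 25 and 32 after silencing. The groups meet at 25, and only APC shRNA replicate II stood higher. Its log2 difference was 0.23 ± 0.15 (SE, limma adjusted p = 0.356, n = 2 per group), with a 95% interval of -0.24 to 0.70. Its exons share 2886 bases on the same strand with AC021078.1, which is not among the genes listed, so with the shared 50-base stretches given above the value of CSNK1A1 depends on how such reads were assigned.

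GSK3B (chr3:119821323-120094417, − strand), the kinase that extends the phosphorylation, was listed at 12 and 11 in the NonS libraries and at 14 and 10 after silencing. The APC shRNA values lay on either side of the NonS values. The log2 difference was 0.04 ± 0.19 (SE, limma adjusted p = 0.893), with a 95% interval of -0.55 to 0.63, so neither a fall nor a gain of about 1.5-fold could be told from no difference. Its sign turned without NonS replicate II (-0.02) or without APC shRNA replicate I (-0.18). The isoform GSK3A, which shares its role, was listed at 34, 35, 42 and 39 in NonS I, NonS II, APC shRNA I and APC shRNA II. GSK3B made up 26.1% and 23.9% of the summed GSK3 value in NonS and 25.0% and 20.4% after silencing, and the shares overlapped (exact permutation p = 0.667, two-sided).

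CTNNB1 (chr3:41194741-41260096, + strand) was listed at 44 and 45 in the NonS libraries and at 53 and 60 after silencing. Both APC shRNA values lay above both NonS values, and the APC shRNA replicates were farther apart than the NonS replicates. The mean went from 44.5 ± 0.707 to 56.5 ± 4.95 (SD, n = 2), a ratio of 1.27. The log2 difference of 0.34 ± 0.087 (SE) had a 95% interval of 0.07 to 0.60 and did not pass the adjustment (limma, unadjusted p = 0.0280, adjusted p = 0.104). Rounding to whole numbers moves the log2 ratio of means only between 0.32 and 0.37.

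CTNNB1 was compared with JUP (plakoglobin, or gamma-catenin), its closest relative, which joins desmosomes as well as adherens junctions. JUP was the more abundant in every library, at 119 and 132 in NonS and at 157 and 148 after silencing. CTNNB1 took 27.0% and 25.4% of their summed value in NonS and 25.2% and 28.8% after silencing. The shares overlapped, with a difference of 0.833 percentage points (exact permutation p = 1.0, two-sided). The 3 tested genes whose values were nearest to CTNNB1 across the 4 libraries, by the smallest sum of squared log2(value + 1) differences, were ATP6V1G1 (0.00745), AP1M2 (0.00905) and HOXB6 (0.0103). ATP6V1G1, a subunit of the vacuolar proton pump, was listed at 46, 45, 51 and 61 in the library order above.

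TCF7 showed the largest log2 difference of the 6 core genes tested. TCF7 (chr5:134114711-134151865, + strand) is a TCF factor that is itself known as a Wnt target and best known from T cell development. It was listed at 12 and 13 in the NonS libraries and at 20 and 24 after silencing. The groups were separate by 7 units, more than the 1 unit between NonS replicates and the 4 units between APC shRNA replicates. The mean went from 12.5 ± 0.707 to 22.0 ± 2.83 (SD, n = 2), a ratio of 1.76. The log2 difference of 0.76 ± 0.12 (SE) had a 95% interval of 0.39 to 1.13 and missed the threshold narrowly (limma, unadjusted p = 0.00664, adjusted p = 0.0593). It was called under 7 of 13 other settings of scaling, GC content, block, moderation and filters, with adjusted p from 0.00803 to 0.0904, and log2 differences from 0.62 to 0.81. The 7 settings that called it called 11.4% to 46.1% of all genes, against 8.04% in the reported test. Leaving out 1 library at a time gave 0.64 to 0.89, with no call (limma adjusted p = 0.151 to 0.265). T cell markers were at or near 0 in every library. TCF7 shares 210 exonic bases with SKP1 on the opposite strand, and SKP1 was listed at 15, 12, 16 and 16.

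The other TCF/LEF factor above 0 was TCF7L2 (chr10:112950250-113167678, + strand), best known from the intestinal epithelium. TCF7L2 was listed at 10 and 10 in the NonS libraries and at 10 and 12 after silencing, so the groups touch at 10. Its log2 difference was 0.12 ± 0.11 (SE, limma adjusted p = 0.481), with a 95% interval of -0.22 to 0.46. TCF7L1 (chr2:85133410-85310388, + strand), which acts mainly as a repressor, and LEF1 (chr4:108047545-108168956, − strand), which is known to be induced by Wnt signalling in many cells, were at 0 in all 4 libraries. At the rounding of these files a listed 0 stands for any value below 0.5 and does not show that the RNA was absent.

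The summed value of the TCF/LEF factors was 22 and 23 in NonS and 30 and 36 after silencing. TCF7 made up 54.5% and 56.5% of that sum in NonS and 66.7% and 66.7% after silencing, and TCF7L2 made up the rest. The difference of 11.1 percentage points exceeded the spread between replicates (55.5% ± 1.40 against 66.7% ± 0.0, SD, n = 2). The exact permutation p was 0.333 (two-sided), the smallest that 2 values against 2 allow, so the design cannot carry this difference past 0.05. Rounding of the deposited values alone leaves the NonS shares between 50% and 58.7% and the APC shRNA shares between 62.9% and 68.3%, so the groups stayed apart. The TCF/LEF share was the 1 division planned, and the other 4 families divided here were added after the values were seen.

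**Figure D2:**
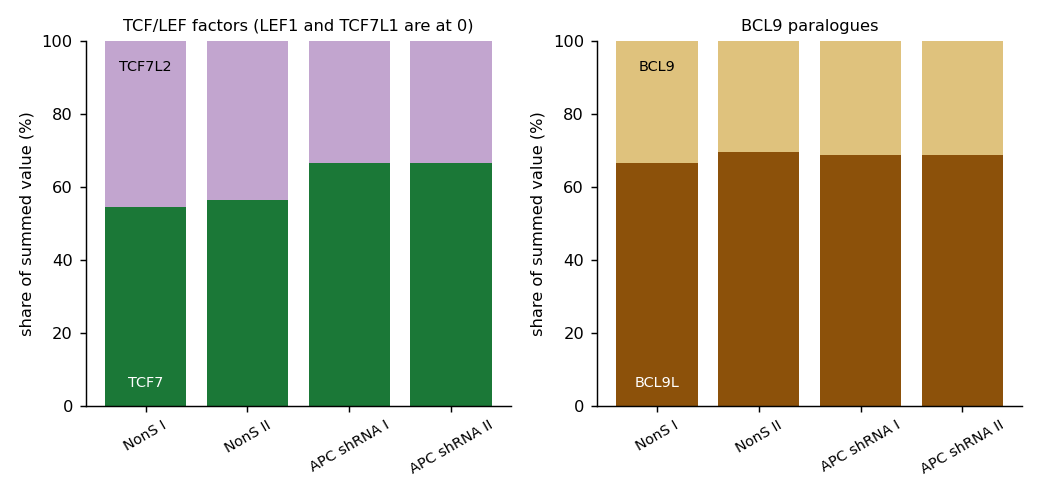
Share of the summed value (percent, vertical axis) taken by TCF7 and TCF7L2 (left) and by BCL9L and BCL9 (right) in each of the 4 libraries. TCF7 goes from 54.5% and 56.5% in NonS to 66.7% in both APC shRNA libraries, whereas BCL9L stays between 66.7% and 69.6%.

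BCL9L (chr11:118893875-118925608, − strand), an adaptor that links beta-catenin to Pygopus, was listed at 14 and 16 in the NonS libraries and at 22 and 22 after silencing. Both APC shRNA values lay above both NonS values. The mean went from 15.0 ± 1.41 to 22.0 ± 0.0 (SD, n = 2), a ratio of 1.47. The log2 difference was 0.53 ± 0.086 (SE), with a 95% interval of 0.26 to 0.79 (limma, unadjusted p = 0.00769, adjusted p = 0.0625), and 4 of 13 other settings called it. Those 4 settings called 13.2% to 46.1% of all genes, against 8.04% in the reported test. BCL9L shares 3925 exonic bases with CXCR5 on the opposite strand. CXCR5, a chemokine receptor of B cells, was listed at 6 and 6 in the NonS libraries and at 9 and 9 after silencing. The library kit marks strand, but the strand setting of the counting was not given in the sources used here. Without it, reads from the 3925 shared bases, of 10470 exonic bases of BCL9L, cannot be assigned to 1 of the 2 genes.

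BCL9 (chr1:147541412-147626216, + strand), the paralogue of BCL9L, was listed at 7 and 7 in the NonS libraries and at 10 and 10 after silencing, a ratio of 1.43. Its mean of 8.50 kept it out of the test. When the filter was lowered to a total of at least 1, BCL9 was called (log2 difference of 0.46, limma adjusted p = 0.00257, with 11.5% of genes called), and so it was at a mean of at least 1 (adjusted p = 0.00949, with 9.78% of genes called). That p rests on replicates with no spread after rounding, and rounding by itself leaves the log2 ratio of means anywhere from 0.34 to 0.69. BCL9L held 66.7% and 69.6% of the summed BCL9 and BCL9L value in NonS and 68.8% and 68.8% after silencing, and these shares overlapped (difference of 0.634 percentage points, exact permutation p = 1.0).

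Differences in these libraries went with the GC content of the transcripts, and the core genes lie on either side of it. With the genes tested divided into 4 equal groups by GC content, the median log2 difference was -0.17 in the lowest group (31.5% to 45.0%) and 0.10 in the highest (58.3% to 73.7%). CSNK1A1 (39.4%), GSK3B (42.1%) and CTNNB1 (43.5%) fall in the lowest group, TCF7L2 (45.8%) just above it, TCF7 (54.9%) in the third and BCL9L (62.6%) in the highest. After a trend on GC content was taken out of each library, the log2 difference of CTNNB1 was 0.47 and that of CSNK1A1 0.48, whereas those of TCF7 and BCL9L were 0.68 and 0.41. TCF7 and BCL9L were then called (limma adjusted p = 0.0281 and 0.0439), 2 of 6 against 17.0% of all genes. What part GC content had in each difference was not tested further.

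**Figure D3:**
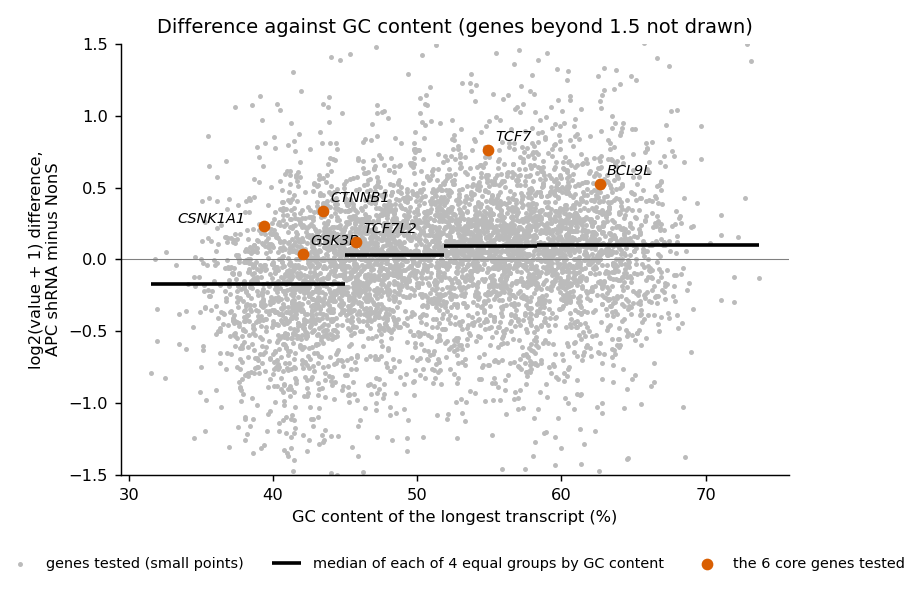
Log2(value + 1) difference (APC shRNA minus NonS, vertical axis) against GC content of the longest transcript (percent, horizontal axis), with the genes tested as small grey points, the 6 core genes tested in orange and the median of each of 4 equal groups by GC content as a black line. All 6 core genes lie above the line of their own group.

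No peak, methylation or binding data go with these libraries, so promoters can only be read. RefSeq (GRCh38.p14) gave 14 starts for 9 of the 10 genes, with no entry for BCL9L. The 250 bases before each start were searched on both strands for CTTTGA, the core of the TCF/LEF motif, and for CTTTGT, a variant of it. CTTTGA was in 0 of 14 windows, against 11.2% of 35116 promoters, and CTTTGT was in 2 of 14, against 13.7%. The windows of CTNNB1 and LEF1 lay wholly within exons of the same gene in GENCODE v29. So did part of a window of CSNK1A1, TCF7L2, BCL9 and TCF7 (its outer start). The window with 2 matches belongs to the inner start of TCF7, the gene with the largest difference, and is printed for that reason (chr5:134123368-134123617, + strand, 62.0% GC). Capitals mark ACAAAG, the reverse complement of CTTTGT, which begins at positions -217 and -49 relative to the start.
TCF7, 250 bases before the second start: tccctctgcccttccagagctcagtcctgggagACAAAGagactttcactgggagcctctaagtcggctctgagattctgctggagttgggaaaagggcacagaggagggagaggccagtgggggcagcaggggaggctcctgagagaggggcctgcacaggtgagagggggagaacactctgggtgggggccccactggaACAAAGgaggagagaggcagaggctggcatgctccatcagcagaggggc
The other window with a match, 1 in number, lies before an inner start of TCF7L2. A match of letters is a description of the sequence, and gene-level values do not say which start of TCF7 was used.

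The other genes of the pathway were taken from 6 lists with 65 genes, of which 38 were tested. AXIN2, LDB1, CSNK1E and DVL3 rose after APC silencing and 0 genes fell, so 4 of 38 were called, against 8.04% of all genes tested. AXIN2 was named by the study from these libraries, so its place in this count is not independent evidence. The count is therefore not read as a result about the lists. The median log2 difference of the 38 genes was 0.22, against 0.03 over all genes tested. Both APC shRNA values lay above both NonS values in 24 of 38 and below them in 5 of 38, against 33.0% and 27.5% of all genes tested. The 38 include CREBBP and CHD8, each at 9 and 10 in NonS, which passed the filter on the mean only through their APC shRNA values. CREBBP is also 1 of the 24. Without any 1 of the 4 libraries none of the 4 genes passed (limma adjusted p = 0.148 to 0.213), and neither did any other of the 5376 genes, since each such fit compares 1 library with 2.

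Among 19 further genes listed with the destruction complex, which take in other CK1 isoforms, 2 of 11 tested rose, against 4.33% of all genes tested. AXIN2 was named by the study from these libraries, and CSNK1E is known for another step. The count is therefore not read as a rise of the destruction complex. AXIN2, a scaffold of the complex and itself a known Wnt target, was listed at 16 and 22 in the NonS libraries and at 124 and 178 after silencing. The groups were far apart, with a ratio of 7.95 and a log2 difference of 2.92 ± 0.27 (SE, limma adjusted p = 0.0452). CSNK1E, the CK1 isoform known to act on Dishevelled, was listed at 16 and 15 in the NonS libraries and at 28 and 27 after silencing, a ratio of 1.77 (log2 difference of 0.79 ± 0.062, limma adjusted p = 0.0423). Its share of the summed CK1 alpha, delta and epsilon value was 19.8% and 18.1% in NonS and 28.0% and 25.0% after silencing (exact permutation p = 0.333). The share of CSNK1A1 in the same sum was 30.9% and 27.7% in NonS and 25.0% and 29.6% after silencing, and it overlapped (exact permutation p = 0.667). The other scaffold, AXIN1, was listed at 24, 29, 30 and 32 (limma adjusted p = 0.278).

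Dishevelled proteins relay the receptor signal to the destruction complex, and 1 of 4 tested genes of the Dishevelled and FRAT list rose, against 4.33% of all genes tested. DVL3 was listed at 16 and 16 in the NonS libraries and at 24 and 24 after silencing, a ratio of 1.5 (log2 difference of 0.56 ± 0.047, limma adjusted p = 0.0428), and its replicates were equal after rounding. DVL1 was listed at 32 and 35 in the NonS libraries and at 28 and 27 after silencing (limma adjusted p = 0.106). Both of its APC shRNA values lay below both NonS values, whereas in the other 3 genes tested both lay above. Over all genes tested 27.5% lay below and 33.0% above in this way. Among the coactivators, 1 of 7 tested rose, against the same 4.33%. Counts of 1 gene in lists this short say little about the list. LDB1, which assembles the BCL9 and Pygopus complex with SSBP proteins, was listed at 17 and 15 in the NonS libraries and at 42 and 41 after silencing. Its ratio was 2.59 and its log2 difference 1.32 ± 0.084 (SE, limma adjusted p = 0.0423). The median over the 7 coactivators tested was 0.47, which is the value of CREBBP. CREBBP, at 9 and 10 in NonS and at 14 and 13 after silencing, passed the filter on the mean only through its APC shRNA values.

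The remaining lists held no called gene by limma, against 8.04% of all genes tested. The counts were 0 of 4 tested in the ubiquitin ligase and tankyrase list, 0 of 7 among corepressors and inhibitors and 0 of 5 among junction partners. The medians of these lists were 0.12, 0.17 and 0.17. At a total of at least 1, 952 of 12799 genes were called higher and 515 lower (11.5% in both directions). Of the 62 pathway genes tested there, 7 were called higher and 0 lower, which is not read as a result about the lists. In the remaining lists, of 9, 14 and 5 genes, 3 low genes were called higher. They were BTRC (3, 3, 4 and 4), TLE3 (6, 6, 12 and 12) and NLK (5, 5, 7 and 7), all with equal replicates after rounding. CUL1, the cullin of the ligase that ubiquitinates beta-catenin, was listed at 45, 40, 36 and 26 (limma adjusted p = 0.212). Both APC shRNA values of CUL1 lay below both NonS values, whereas in 2 of the 4 tested genes of its list both lay above. The RING partner of CUL1, RBX1, was listed at 27, 31, 26 and 32. HDAC1, a histone deacetylase used by corepressors, was listed at 181, 192, 144 and 156 (limma adjusted p = 0.0991), with both APC shRNA values below both NonS values. AES, a short relative of the TLE corepressors, was listed at 65, 76, 81 and 93 (limma adjusted p = 0.211). CTNND1 (p120 catenin), which holds E-cadherin at the membrane, was listed at 81, 92, 101 and 112 (limma adjusted p = 0.164). E-cadherin itself (CDH1) was listed at 98, 119, 74 and 85 (limma adjusted p = 0.145), with both APC shRNA values below both NonS values. In 3 of the 5 junction partners tested, CTNND1 included, both lay above, against 33.0% of all genes tested. A list this short says little beside that share.

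**Figure D4:**
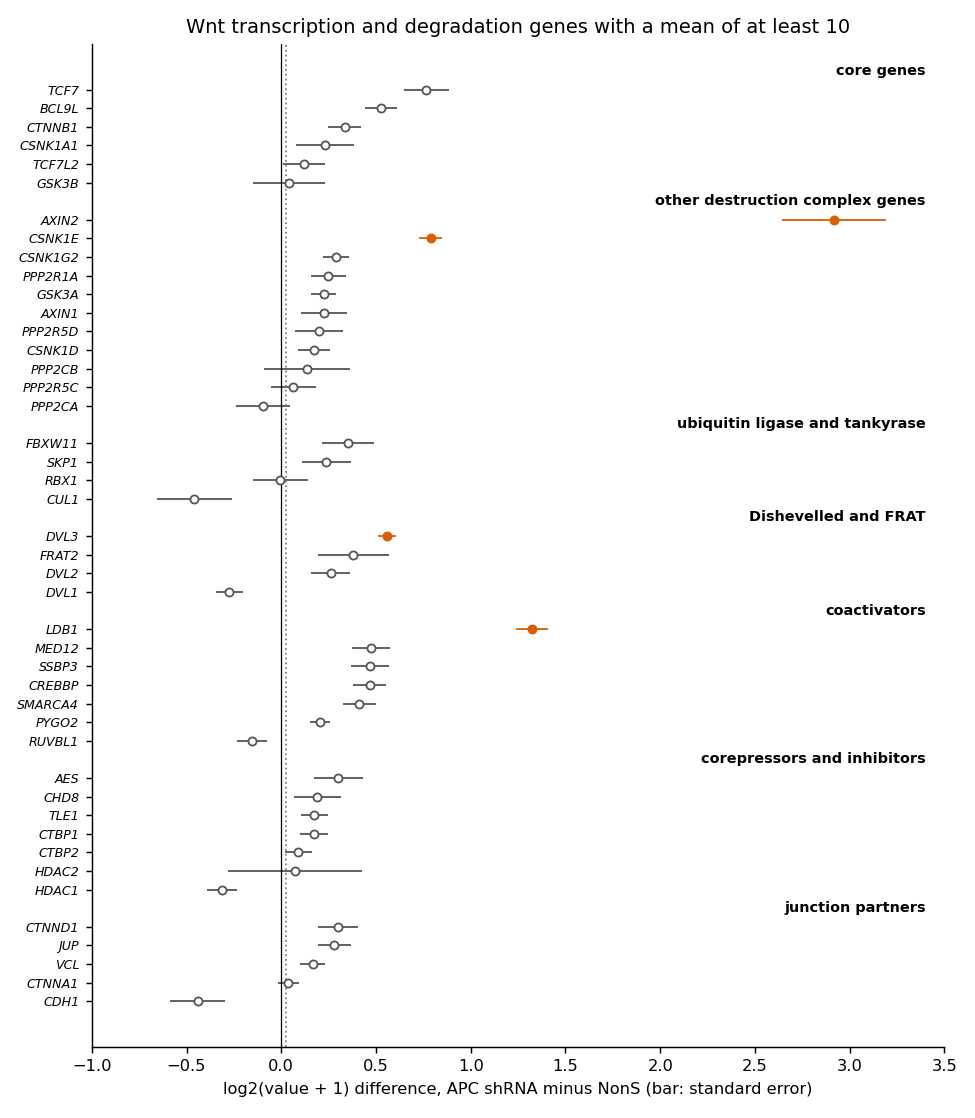
Log2(value + 1) difference (APC shRNA minus NonS, horizontal axis, bars are standard errors) of the core genes and the 6 pathway lists with a mean of at least 10, and the median of all genes tested as a dotted line. Filled orange points passed an adjusted p under 0.05 (AXIN2, CSNK1E, DVL3 and LDB1), and none of the 6 core genes did.

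Values of genes that beta-catenin and TCF/LEF factors are known to activate are given for context. In a list of 10 such target genes, AXIN2, NKD1, NOTUM, SP5 and ASCL2 were named by the study from these libraries, so the list is not independent evidence of its direction. NKD1, NOTUM, SP5 and ASCL2 passed the filter on the mean only through their APC shRNA values, so no count or median over the list is given as a result. NKD1, a feedback inhibitor, went from 0 and 0 to 28 and 36, and NOTUM, an enzyme that inactivates Wnt ligands, from 1 and 1 to 108 and 168 (limma adjusted p = 0.0423 for both). SP5, a transcription factor, went from 3 and 4 to 65 and 83, and ASCL2, a stem cell factor, from 4 and 4 to 42 and 66 (limma adjusted p = 0.0423 for both). Of the targets with a NonS mean of at least 10, AXIN2, RNF43, ZNRF3 and CCND1 rose. MYC, listed at 114, 89, 85 and 65, went the other way, with both APC shRNA values below both NonS values. Its log2 difference was -0.43 and it was not called (limma adjusted p = 0.246). LGR5, at 3, 2, 10 and 8, was too low to be tested.

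**Figure D5:**
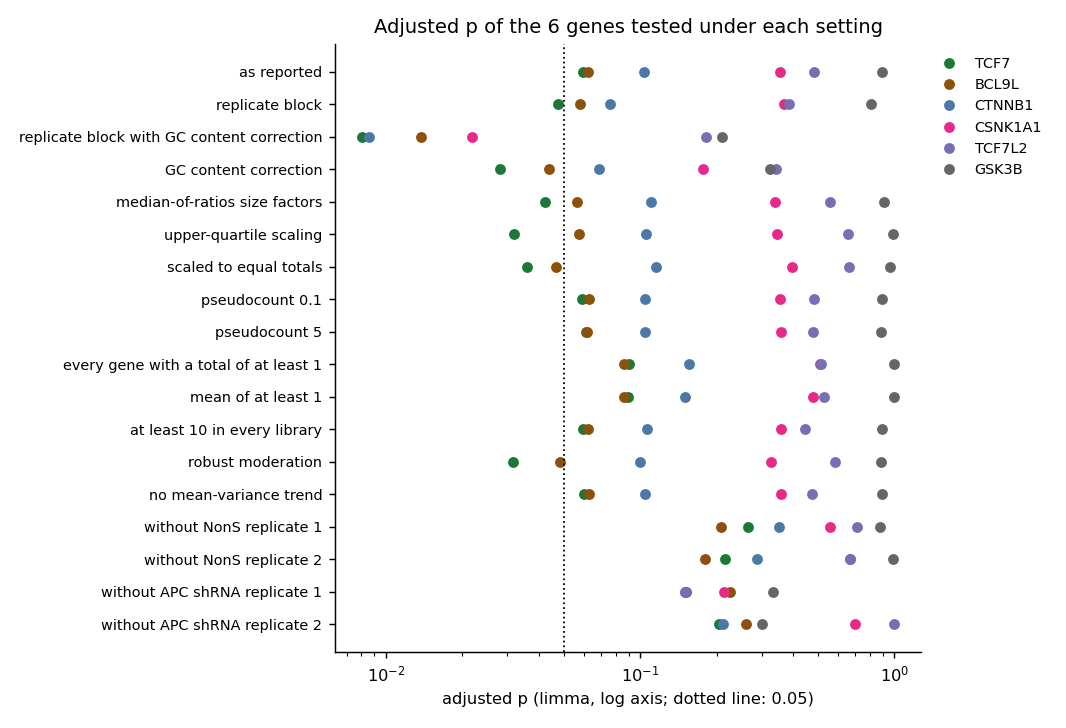
Adjusted p of limma (horizontal log axis) for the 6 core genes tested under the reported setting and each alternative (rows), with the threshold of 0.05 as a dotted line. TCF7 lies left of the line in 7 alternatives, BCL9L in 4, CTNNB1 and CSNK1A1 in 1 each and GSK3B and TCF7L2 in none. The alternatives with a point left of the line called 11.4% to 46.1% of all genes, against 8.04% as reported.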

How the data were processed

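Per the labels and the study's methods, strand-marking mRNA libraries were read as 50-base single reads. The authors called bases with bcl2fastq 2.19.0.316 (submitters' processing notes), filtered the reads, trimmed polyA, mapped them with TopHat2 to human assembly 38 (the labels name hg19), counted with htseq-count on GENCODE v29 and ran DESeq2 1.4.1. They deposited 1 whole-number score per gene and library, with no stated scaling. A deposited table of their own comparison (mean, log2 fold change, fold change, adjusted p-value) was not used, and 0 per-sample columns were left out.

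Scores were compared as log2(value + 1), without further scaling, where the mean was at least 10, by limma 3.58.1 (lmFit, eBayes with a mean-variance trend) in R 4.3.3, two-sided. Because the scores are not counts, no count model was run. The script was tested on simulated data. Replicate numbers are those of the labels, which name no batch. Transcripts, GC content (5364 genes) and overlaps come from GENCODE v29, which holds 19502 of 19729 genes. Shares and searches used Python 3.11.15, pandas 2.3.3 and scipy 1.17.1. Alternatives covered scaling, pseudocount (0.1, 5), filters, moderation, GC content (loess, span 0.5), a replicate block, the study's cut-offs (fold over 4, adjusted p under 0.01) and each library left out.

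The members and lists were chosen with earlier results of these data known. All members were named. From each pathway list up to 4 called genes with the largest differences were named, or, with none called, the 2 with the largest mean. From the target list the leading 5 were named. APC2, GSK3A, AXIN1, CDX2, CXCR5, SKP1, CDX1, RNF43, ZNRF3, CCND1, LGR5 and MYC were added after their values were seen. So were CREBBP, CHD8, DVL1, BTRC, TLE3, NLK and CDH1.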

Additional observations from a re-analysis of the deposited data

How the results depend on the processing

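The count of core genes called was 0 of 6. It was 1 with a replicate block (19.0% of all genes called), median-of-ratios size factors (11.4%) or upper-quartile scaling (12.7%), TCF7 each time. With a total (11.5%) or a mean (9.78%) of at least 1 it was 1 (BCL9). It was 2 with GC content correction (17.0%), equal totals (13.2%) or robust moderation (13.4%), TCF7 and BCL9L each time. When GC content correction was joined to the replicate block it was 4 (TCF7, CTNNB1, BCL9L and CSNK1A1), where 46.1% of all genes were called. The share of all genes called as reported was 8.04%. The core count stayed at 0 with the other pseudocounts, at least 10 in every library and no trend. The pathway count of 4 became 16 with GC content correction joined to the replicate block (12 higher, 4 lower). It became 5 of 38 with GC content correction alone (4 higher, 1 lower). With a total or a mean of at least 1 it became 7 of 62 (against 11.5% and 9.78% of all genes). Under the study's cut-offs (fold over 4, adjusted p under 0.01) both counts were 0, which says nothing about these genes. The smallest limma adjusted p of all 5376 genes was 0.0423, so no gene could pass 0.01. Fits with 1 library left out held fewer samples, with 1 library against 2, and their counts are not read as a change. For the other changes the cause was not tested.

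Replicate numbers were not taken to pair the samples, since neither labels nor methods state a shared batch or day and there are only 2 pairs, although replicate differences correlated between groups (0.724 over 5376 genes). The block raised the genes called from 8.04% to 19.0%, and the same-numbered pairs differed by 12.1 and 10.1 points in TCF7 share. GSK3B went from 0.04 to between -0.18 and 0.26 with 1 library left out, and to -0.02 without NonS replicate II. Every other core gene tested kept its direction, except that TCF7L2 stood at 0 without APC shRNA replicate II. Read depth is unknown, and rounding to whole numbers leaves APC, TCF7L1 and LEF1 unresolved and limits BCL9, TCF7L2 and GSK3B.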
